A study of Mus musculus with 6 samples.

Results

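In the RNA of whole mouse aortas, 8 channel genes were followed: *Trpv4*, *Piezo1*, *Trpc1*, *Trpc6*, *Trpv2* and *Pkd2*, which encode channels that let calcium into cells, and *Kcnn4* and *Kcnn3*, which encode the intermediate- and small-conductance calcium-activated potassium channels of endothelial hyperpolarization. They were looked up by NCBI gene identifier from a list of names. All 8 were among the 18191 genes of the deposited table, and all 8 passed the filter on low counts. The list was chosen by its FPKM values and fold changes between the genotypes, which were already in view, so that this contrast is given for the 8 genes as a description, without a p-value. The study compared 3 libraries of wild type (WT) mice with 3 libraries of mice labelled NPR1+/-, written Npr1+/- here, numbered 1 to 3 in each genotype, and sets of 3 values below follow that order. All mice were male. *Npr1* encodes the receptor that makes cGMP when natriuretic peptides bind it, and Npr1+/- mice are heterozygous for a knockout made with CRISPR-Cas9. The sources used here name no Cre or cell type promoter for the knockout and no treatment of either group. Strain and age are not given in the sources used here, nor whether each library is a separate mouse, so that p-values measure the spread between libraries alone.

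Endothelial cells line the aorta as a single layer, while smooth muscle makes up most of the wall. When blood flow or an agonist opens calcium channels such as TRPV4 or PIEZO1 in the endothelial membrane, the incoming calcium binds calmodulin on the SK3 and IK channels (products of *Kcnn3* and *Kcnn4*), potassium leaves the cell, and the hyperpolarization spreads to smooth muscle through gap junctions and relaxes the vessel. The same calcium also activates endothelial nitric oxide synthase. Several of these channels are found outside the endothelium as well, such as polycystin-2 (*Pkd2*) and TRPC channels in smooth muscle, TRPV2 in macrophages, and IK and PIEZO1 in red and white blood cells.

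The libraries held between 13510970 and 16664343 estimated counts, so that 3 counts, the smallest signal considered, were between 0.18 and 0.222 CPM, the count scaled to the size of the library. FPKM, which is scaled by transcript length and library size, was used wherever levels of different genes are set side by side. In the targeted gene *Npr1* the FPKM was 112.43, 153.33 and 151.51 in WT against 70.35, 109.92 and 132.95 in Npr1+/- libraries. The genotypes overlapped, since Npr1+/- 3 was above WT 1, and edgeR's quasi-likelihood test gave a log2 fold change of -0.41 (standard error 0.27) with an adjusted p of 0.999. Without Npr1+/- 1 it was -0.22. Within the pairs of the same number *Npr1* stood at 65.2%, 73.9% and 83.2% of WT, lower in 3 of 3. Blocking on that number in edgeR gave a log2 fold change of -0.44 (standard error 0.15) at an unadjusted p of 0.0221 and an adjusted p of 0.311. Both libraries numbered 1 stood apart from the other 4 on the first principal component, which held 59.3% of the variance. They had the least summed CPM of 8 smooth muscle markers (21200 in WT 1 and 13000 in Npr1+/- 1, against 34000 to 38900), the most of 7 fat markers (7360 and 10300, against 1270 to 3260) and the most of 5 erythroid markers (7550 and 6290, against 631 to 1310). Npr1+/- 1 also held sympathetic neuron markers at a summed CPM of 409, which was at most 12.4 in the other libraries. Results are therefore given per library and with each library left out.

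The 8 channel genes spanned about 2 orders of magnitude in level. They were cut into 3 tiers by their mean levels, and by rank each tier held the same genes in each of the 6 libraries. The gaps between the tiers varied with the library. *Pkd2*, *Piezo1* and *Trpv2* formed the upper tier, with a mean FPKM over 6 libraries of 24.6, 14.6 and 10.8. *Trpv4*, *Trpc1* and *Kcnn4* formed the middle tier at 4.92, 4.53 and 3.51, and *Trpc6* and *Kcnn3* the lower tier at 0.50 and 0.232. By mean FPKM *Pkd2* ranked 3198 among the 18191 genes of the table and *Kcnn3* ranked 14229. Of the 6 calcium entry channels followed, polycystin-2 and PIEZO1 thus had the most RNA for their length, and each gene had a higher FPKM than *Trpv4* in every library.

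**Figure D1:**
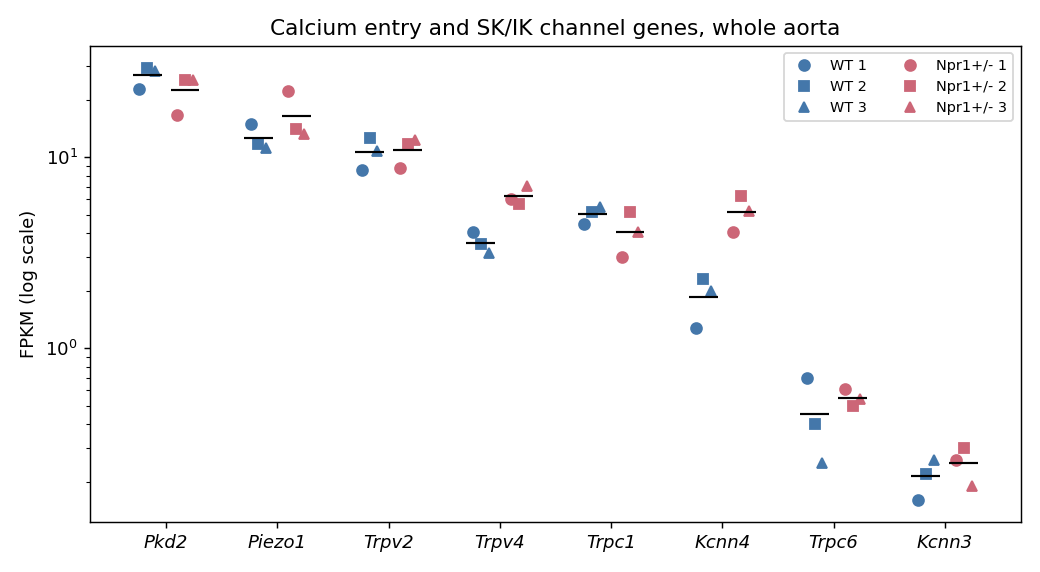
FPKM (log axis) of the 8 channel genes in each library, with genes in order of their level over all libraries, WT in blue, Npr1+/- in red, the marker shape giving the replicate number and the bar the arithmetic mean of 3 libraries. *Trpv4* and *Kcnn4* are the 2 genes whose red points all lie above the blue points, and the 6 other genes overlap.

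Neighbours in the order of levels were compared within each library on the log2(FPKM + 0.1) scale, as a description without a p-value, since the pairs were formed from the levels themselves. *Trpv2* was above *Trpv4* in 6 of 6 libraries, by 1.16 ± 0.51 (SD, n = 6), and *Kcnn4* was above *Trpc6* in 6 of 6, by 2.44 ± 0.91. Within the tiers the order was less stable. *Pkd2* was above *Piezo1* in 5 of 6 libraries (mean log2 difference 0.77 ± 0.65), *Piezo1* above *Trpv2* in 5 of 6 (0.41 ± 0.55) and *Trpc6* above *Kcnn3* in 5 of 6 (0.82 ± 0.57). *Trpv4* and *Trpc1* did not differ beyond their spread, with *Trpv4* higher in 3 of 6 libraries (0.08 ± 0.71), and neither did *Trpc1* and *Kcnn4* (0.54 ± 0.99). The middle tier was where the genotypes differed in order. In WT 1 to 3 the order was *Trpc1*, *Trpv4*, *Kcnn4*, and in Npr1+/- 1 to 3 *Trpc1* was the lowest of these 3 genes.

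*Trpv4* encodes the vanilloid TRP channel through which shear stress and endothelium-dependent agonists raise endothelial calcium. It is NCBI gene 63873 and sits on chromosome 5 of the GRCm38 assembly from 114622152 to 114658421 (minus strand). In FPKM its level was 4.06, 3.50 and 3.13 in WT against 6.04, 5.71 and 7.06 in Npr1+/- libraries. All 3 Npr1+/- libraries were above all 3 WT libraries, and the lowest Npr1+/- library was still above the highest WT library by more than 1 FPKM. In normalized CPM, WT aortas had a mean of 11.5 ± 1.37 (SD, n = 3) and Npr1+/- aortas of 20.5 ± 1.80 (SD, n = 3), a ratio of 1.78. The log2 fold change was 0.84 (standard error 0.16), and it was 0.75 at the lowest and 0.93 at the highest when any 1 library was omitted. Against the WT library with the same number, *Trpv4* stood at 156%, 169% and 217% in the Npr1+/- libraries 1 to 3.

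*Kcnn4* encodes the intermediate-conductance channel, the potassium exit that in arteries sits largely in endothelial projections toward smooth muscle. It is NCBI gene 16534 and lies on chromosome 7 from 24370263 to 24386690 (plus strand). Its FPKM was 1.27, 2.30 and 1.99 in WT against 4.04, 6.23 and 5.21 in Npr1+/- libraries. The libraries of the genotypes did not overlap. The estimated counts behind these values were 35, 72 and 66 in WT and 114, 200 and 157 in Npr1+/- libraries. In normalized CPM, WT aortas had a mean of 3.69 ± 1.00 (SD, n = 3) and Npr1+/- aortas of 10.3 ± 2.28 (SD, n = 3), a ratio of 2.78. This was the largest difference among the 8 genes, with a log2 fold change of 1.47 (standard error 0.29), and it stayed between 1.26 and 1.62 with each library left out. Within the pairs of the same number, Npr1+/- libraries stood at 318%, 285% and 245% of WT. Among all 13938 genes tested, 125 had a higher log2 fold change than *Kcnn4*, and *Trpv4* was at rank 516.

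The sequences upstream of *Trpv4* and *Kcnn4* are shown because these were the 2 genes that were higher in all 3 Npr1+/- libraries, and that of *Kcnn3* for comparison, the related potassium channel whose genotypes overlapped. They are the 250 bases before the transcription start that RefSeq lists (GRCm38.p6), from 5′ to 3′ in the direction of transcription, with capitals for GGGCGG (SP1 GC box) and CCACCC (KLF CACCC box) on either strand.
Trpv4 promoter, chr5:114658422-114658671, minus strand: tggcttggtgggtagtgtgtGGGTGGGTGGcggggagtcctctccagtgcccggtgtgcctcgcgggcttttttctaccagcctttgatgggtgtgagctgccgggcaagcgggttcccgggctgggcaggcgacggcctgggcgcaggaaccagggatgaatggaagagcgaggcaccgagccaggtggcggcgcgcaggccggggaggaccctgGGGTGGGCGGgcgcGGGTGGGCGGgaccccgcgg
Kcnn4 promoter, chr7:24370013-24370262, plus strand: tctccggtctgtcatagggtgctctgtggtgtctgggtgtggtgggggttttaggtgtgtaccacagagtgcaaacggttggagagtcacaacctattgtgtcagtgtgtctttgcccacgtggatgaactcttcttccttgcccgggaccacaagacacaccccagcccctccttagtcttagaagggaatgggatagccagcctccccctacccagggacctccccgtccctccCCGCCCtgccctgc
Kcnn3 promoter, chr3:89519914-89520163, plus strand: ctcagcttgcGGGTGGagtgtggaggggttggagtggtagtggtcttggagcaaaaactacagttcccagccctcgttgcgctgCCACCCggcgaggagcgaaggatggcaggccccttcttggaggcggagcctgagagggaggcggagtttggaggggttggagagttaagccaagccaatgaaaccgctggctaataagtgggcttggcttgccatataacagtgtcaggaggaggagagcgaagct

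The sequences differed in composition. The 250 bases of *Trpv4* were 72% G and C with 22 CpG dinucleotides, against medians of 52.4% and 6 over the 32851 RefSeq promoters of the same length. Those of *Kcnn4* were 58.8% G and C with 6 CpG, and those of *Kcnn3* 58.8% with 10. *Trpv4* held 2 GC boxes, starting 30 and 16 bases before the start site, and 4 CACCC boxes, of which 2 overlap each other and 2 each overlap a GC box. *Kcnn4* held 1 GC box, 14 bases before the start site, and 0 CACCC boxes. *Kcnn3* held 0 GC boxes and 2 CACCC boxes. A GC box was present in 32.7% of all promoters and a CACCC box in 28.1%. The AP-1 motif TGANTCA, which 6.75% of all promoters hold, had 0 matches on either strand of these 3 windows. The motif AGATAA of GATA factors (9.99% of all promoters) and the TATA box motif TATAAA (12.4%) had 0 matches as well. Matches describe letters in the window and not occupied sites.

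*Kcnn3* encodes SK3, the small-conductance channel of endothelium and also of neurons. It is NCBI gene 140493 and lies on chromosome 3 from 89520164 to 89675132 (plus strand). Its FPKM was 0.16, 0.22 and 0.26 in WT against 0.26, 0.30 and 0.19 in Npr1+/- libraries, so that the genotypes overlapped, with Npr1+/- 3 below WT 2 and 3. These values rested on between 17 and 37 estimated counts, where counting error alone is large. The log2 fold change was 0.22 (standard error 0.35). *Kcnn4* had a higher FPKM than *Kcnn3* in every library, by a factor of 7.94, 10.5 and 7.65 in WT against 15.5, 20.8 and 27.4 in Npr1+/- libraries.

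Among the other calcium-activated potassium channels is the large-conductance BK channel of smooth muscle (pore *Kcnma1*, beta subunit *Kcnmb1*), which opposes contraction. Of the 11 further genes of this class in the list, 6 passed the filter on low counts and 0 of 6 were called between the genotypes by edgeR's quasi-likelihood test, a call being an adjusted p below 0.05 with a log2 fold change of 0.5 or more in size. Positive log2 fold changes were seen in 2 of these 6 genes, and the median was -0.33, against 0.01 over all genes tested. An unadjusted p under 0.05 was found for 0 of the 6 genes, against 2.96% of all genes tested. With the replicate block it was found for 2 of them, against 12.4% of all genes tested. The 2 genes were *Kcnma1* and *Kcnmb1*, with adjusted p of 0.258 and 0.277 from edgeR's quasi-likelihood test with the block. *Kcnmb1* had the highest level of the class, with an FPKM of 44.59, 68.89 and 75.81 in WT against 22.91, 57.17 and 60.99 in Npr1+/- libraries. *Kcnma1* followed with 9.37, 15.96 and 16.42 in WT and 5.23, 13.71 and 12.70 in Npr1+/- libraries. Both genes were lower in the Npr1+/- library of each of the 3 pairs. They were lowest in the libraries numbered 1 of their genotype, which also held the least RNA of smooth muscle markers, and the part of this in the difference was not tested. The FPKM of *Kcnma1* was 7.38, 6.94 and 8.25 times that of *Kcnn4* in WT against 1.29, 2.20 and 2.44 times in Npr1+/- libraries. *Kcnn1*, another small-conductance channel, had an FPKM between 1.51 and 2.45 in WT and between 1.30 and 2.02 in Npr1+/- libraries, above *Kcnn3* in each library. *Kcnmb4*, a beta subunit of neurons, had too few counts to be tested. It had an FPKM of 3.86 in Npr1+/- 1 and of at most 0.13 in the other 5 libraries.

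**Figure D2:**
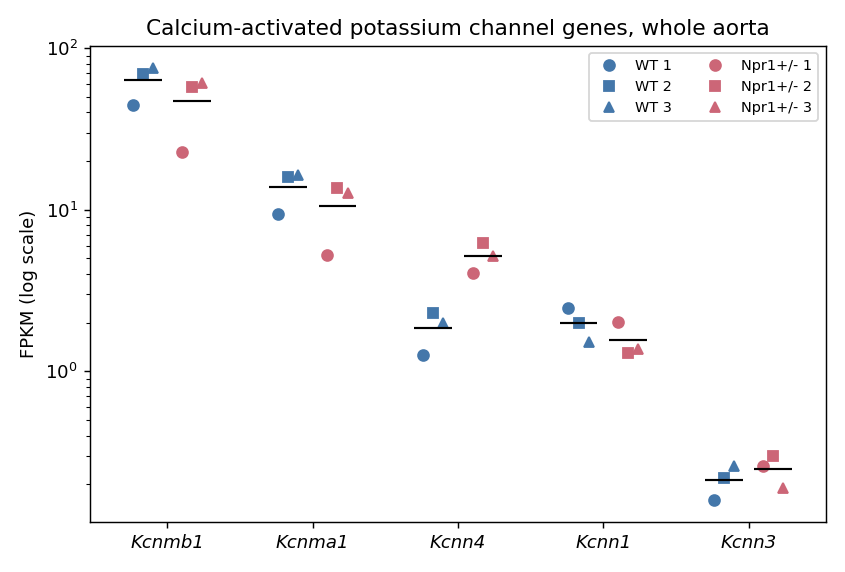
FPKM (log axis) of 5 calcium-activated potassium channel genes in each library, WT in blue, Npr1+/- in red, the marker shape giving the replicate number and the bar the arithmetic mean of 3 libraries. *Kcnn4* is the gene of these 5 whose genotypes do not overlap, and the libraries numbered 1 (circles) are the lowest of their genotype for *Kcnmb1* and *Kcnma1*.

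*Piezo1* encodes the large mechanically gated cation channel with which endothelium and red cells sense force. It is NCBI gene 234839 on chromosome 8 from 122481698 to 122551329, on the minus strand, and overlaps *Ctu2* on the opposite strand, so that reads of these genes can be confused if strand was not recorded. Its FPKM was 14.97, 11.75 and 11.22 in WT against 22.32, 13.95 and 13.14 in Npr1+/- libraries. In each genotype the library numbered 1 was the highest, and the genotypes overlapped because WT 1 was above Npr1+/- 2 and 3. Within the pairs the Npr1+/- library was at 156%, 117% and 106% of WT. The log2 fold change was 0.37 (standard error 0.26), or 0.32 (standard error 0.13) with the replicate number as a block. Without the block it was 0.02 without Npr1+/- 1 and 0.49 without WT 1. Each of these leaves a library numbered 1 in only 1 genotype. The libraries numbered 1 were also those with most RNA of fat and erythroid markers, whose part in the level of *Piezo1* was not tested.

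*Pkd2* encodes polycystin-2, a calcium-permeable channel of primary cilia, endoplasmic reticulum and cell membrane that works together with polycystin-1. It is NCBI gene 18764 on chromosome 5 from 104459450 to 104505819 (plus strand). Its FPKM was 22.65, 29.44 and 28.41 in WT against 16.57, 25.39 and 25.33 in Npr1+/- libraries. The libraries numbered 1 were here the lowest, and the genotypes overlapped. The pairs stood at 75.7%, 88.4% and 85.4% of WT, and the log2 fold change was -0.26 (standard error 0.21), or -0.10 without Npr1+/- 1. The partner gene *Pkd1* had between 1.48 and 1.89 times the FPKM of *Pkd2* in all 6 libraries.

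*Trpv2*, a TRP channel of macrophages and muscle, had nearly the same level in both genotypes. It is NCBI gene 22368 on chromosome 11 from 62574486 to 62600515. FPKM values were 8.57, 12.56 and 10.71 in WT against 8.82, 11.76 and 12.30 in Npr1+/- libraries. The log2 fold change was 0.04 (standard error 0.18), and its sign varied with the library left out, from -0.10 to 0.15. Of 7 macrophage markers, 0 had a higher mean log2 CPM in Npr1+/- than in WT aortas, and their summed CPM was 211 to 511 in WT and 254 to 367 in Npr1+/- libraries.

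*Trpc1* and *Trpc6* encode canonical TRP channels, which open downstream of phospholipase C. *Trpc1* is NCBI gene 22063 on chromosome 9 from 95705082 to 95750375, and its FPKM was 4.45, 5.13 and 5.45 in WT against 2.99, 5.13 and 4.05 in Npr1+/- libraries. The genotypes overlapped, with the same FPKM in both libraries numbered 2, and the log2 fold change was -0.28 (standard error 0.21). *Trpc6* is NCBI gene 22068 on chromosome 9 from 8544142 to 8680741, where a long non-coding gene, *Gm32014*, overlaps it on the opposite strand. Its FPKM was 0.70, 0.40 and 0.25 in WT against 0.61, 0.50 and 0.54 in Npr1+/- libraries, all within the range of the WT libraries. The estimated counts were between 13.38 and 29.22, and the log2 fold change of 0.34 (standard error 0.42) ranged from 0.04 without WT 3 to 0.77 without WT 1.

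Set side by side, 2 of the 8 genes lay higher without overlap, 0 lay lower without overlap and 6 overlapped. Over all genes tested, 3.9% were higher without overlap and 3.58% were lower without overlap. In 4 of the 8 genes all 3 pairs of the same number differed in 1 direction (*Trpv4*, *Kcnn4* and *Piezo1* higher, *Pkd2* lower), as did 34.4% of all genes tested. At the thresholds given above, edgeR's quasi-likelihood test called 0 of the 13938 genes tested (0%), and so 0 of the 8 channel genes. It found 412 genes at an unadjusted p under 0.05 (2.96% of those tested). A block for the replicate number gave 0 calls as well (0%), while 1735 genes had an unadjusted p under 0.05 (12.4%). DESeq2 called 15 of 18033 genes (0.0832%), 14 of them higher in Npr1+/- aortas (0.0776%), and *Trpv4* and *Kcnn4* were among these. The list was drawn up with this contrast in view. The calls of *Trpv4* and *Kcnn4* are therefore no independent test of these genes, and nothing is read from the counts about the channels as a group. The log2 fold changes of the 8 genes had a median of 0.28, with 6 positive values, against a median of 0.01 over all genes tested.

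**Figure D3:**
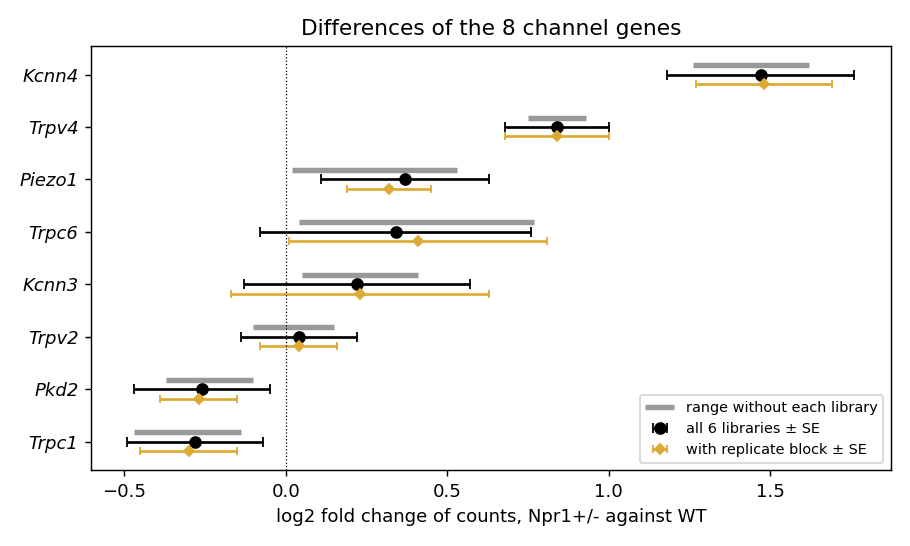
Log2 fold change of estimated counts (Npr1+/- against WT) for the 8 channel genes, with black points and bars for all 6 libraries ± standard error, yellow points and bars for the fit with the replicate number as a block ± standard error, and grey bars for the range when each library is left out in turn. *Kcnn4* (1.47) and *Trpv4* (0.84) lie farthest from 0, and the range of *Piezo1* reaches down to 0.02.

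In whole aorta, more endothelial cells and more RNA of a gene per endothelial cell cannot be told apart, so that the level of 12 endothelial markers is given beside the channels. Of these, 11 had a positive log2 fold change, with a median of 0.59 over the 12, and *Erg* was the exception. *Pecam1*, *Tie1*, *Vwf* and *Egfl7* lay above WT in each Npr1+/- library, as *Trpv4* and *Kcnn4* did. These 4 markers were picked with their values in view, and 3.9% of all genes tested were higher without overlap. By edgeR's quasi-likelihood test 0 of the 12 were called, and 0 of the markers were at 0. On average over the 12 markers log2 CPM was 5.96, 5.26 and 5.82 in WT against 6.64, 6.0 and 5.87 in Npr1+/- libraries. The genotypes overlapped, since Npr1+/- 3 was below WT 1 (difference 0.49, exact two-sided permutation test, p = 0.2, where 3 libraries against 3 allow no p below 0.1). Within the pairs of the same number the marker mean was higher in 3 of 3, by 0.69, 0.74 and 0.05. In edgeR with the replicate block, 9 of the 12 markers had an unadjusted p under 0.05, as did 12.4% of all genes tested. Without the block 4 of the markers did, and 2.96% of all genes tested. Their summed CPM was 630 to 1030 in WT and 1070 to 1670 in Npr1+/- libraries, so that by this measure the genotypes did not overlap.

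Relative to these markers, the differences of *Trpv4* and *Kcnn4* between the genotypes were smaller. *Trpv4* minus the marker mean was -2.24, -1.77 and -2.43 on the log2 CPM scale in WT against -2.29, -1.76 and -1.37 in Npr1+/- libraries. These values overlapped, and the difference of the means was 0.34, against SDs of 0.34 in WT and 0.46 in Npr1+/- aortas. It was 0.12 without Npr1+/- 3, 0.20 without WT 3, 0.53 without WT 2 and 0.58 without Npr1+/- 1. Within pairs 1 to 3 it was -0.05, 0.01 and 1.06, so that by this numbering pair 3 made up nearly all of it. That depends on the match by number. Deviations from the genotype means correlated at 0.445 between WT 3 and Npr1+/- 2 and at 0.371 between WT 2 and Npr1+/- 3. Within pairs 2 and 3 they correlated at 0.386 and 0.235. *Kcnn4* minus the marker mean was -4.53, -3.06 and -3.74 in WT against -3.60, -2.32 and -2.53 in Npr1+/- libraries. Only Npr1+/- 1 fell within the range of WT, and the difference of the means was 0.96, with SDs of 0.74 and 0.68, or 0.59 without WT 1. Within pairs 1 to 3 it was 0.94, 0.74 and 1.21, higher in 3 of 3 (0.96 ± 0.24, SD, n = 3 pairs). Without regard to pairs, 0 of the 8 genes were higher and 0 were lower without overlap relative to the markers, where 0.509% of all genes tested were higher and 13.2% lower. For the 6 other channel genes the differences of the means ran from -0.79 for *Trpc1* to -0.10 for *Trpc6*. The part of the endothelial share of the RNA in the difference of *Trpv4* and *Kcnn4* was not tested beyond these values.

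**Figure D4:**
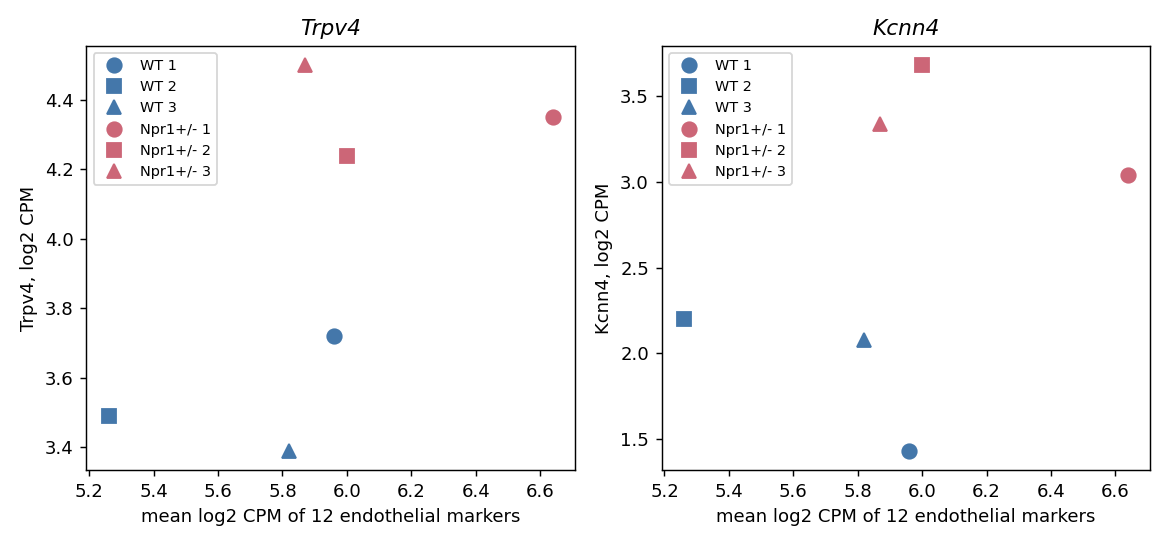
Log2 CPM of *Trpv4* (left) and *Kcnn4* (right) against the mean log2 CPM of 12 endothelial markers in each library, with WT in blue, Npr1+/- in red and the marker shape giving the replicate number. All red points lie above all blue points on the vertical axes, while on the horizontal axes Npr1+/- 3 at 5.87 lies to the left of WT 1 at 5.96.

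Markers of the other cell types of the vessel were compared in the same way. The mean log2 CPM of markers of smooth muscle (0 of 8 higher in the Npr1+/- mean, exact permutation p = 0.5), fibroblasts (1 of 6, exact p = 0.3), macrophages (0 of 7, exact p = 0.7), lymphocytes (4 of 6, exact p = 1) and erythroid cells (0 of 5, exact p = 1) overlapped between the genotypes. Those of Schwann cells (5 of 6 higher, exact permutation p = 0.3), fat (7 of 7, exact p = 0.5), cardiac muscle (3 of 6, exact p = 0.8) and skeletal muscle (4 of 6, exact p = 0.4) overlapped as well. The mean log2 CPM of sympathetic neuron markers was higher in all 3 Npr1+/- libraries (exact two-sided permutation test, p = 0.1, the smallest possible). It was -1.66, -1.68 and -1.51 in WT against 4.66, -1.05 and -1.35 in Npr1+/- libraries. All 10 markers were higher in the Npr1+/- mean, which includes Npr1+/- 1, and only 3 of the 10 passed the filter on low counts. Without Npr1+/- 1 the log2 fold changes of *Trpv4* and *Kcnn4* were 0.83 and 1.60, and the part of neuronal RNA in them was not tested.

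Other channels of calcium entry were looked at as a list of 33 genes, of which 32 were in the table and 19 passed the filter. By edgeR's quasi-likelihood test 0 of the 19 were called in either direction, as were 0% of all genes tested. It gave 0 of the 19 an unadjusted p under 0.05 without the replicate block and 0 with it. Over all genes tested these shares were 2.96% and 12.4%. The median log2 fold change was -0.09, against 0.01 over all genes tested, with 8 positive values and a range from -0.32 to 0.69. The highest levels were those of *Pkd1* (45.8 ± 9.65 FPKM in WT and 37.4 ± 11.9 in Npr1+/- aortas, SD, n = 3), of *Stim1*, the calcium sensor of the endoplasmic reticulum (32.6 ± 2.61 and 34.7 ± 6.97), and of *Tmem63a*, a mechanically gated channel (33.8 ± 6.83 and 29.2 ± 9.34). *Orai3*, a pore of store-operated entry, had an FPKM of 30.79, 27.80 and 29.25 in WT against 22.29, 26.50 and 25.18 in Npr1+/- libraries, lower without overlap, with a log2 fold change of -0.26 (standard error 0.12) and an adjusted p of 0.999 by edgeR's quasi-likelihood test. *Piezo2*, a channel of touch neurons singled out after its values were seen, was the other gene of the list without overlap in normalized CPM, but in FPKM its libraries overlapped (1.08, 1.08 and 0.94 in WT against 0.74, 0.78 and 0.99 in Npr1+/- libraries). Over all genes tested, 3.58% were lower without overlap in normalized CPM.

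Partners that bind or regulate the channels lay close to a log2 fold change of 0. All 16 such genes were tested, and edgeR's quasi-likelihood test called 0 of them. Of the 16 genes 0 had an unadjusted p under 0.05 by this test without the replicate block, and 0 with it. Over all genes tested these shares were 2.96% and 12.4%. The log2 fold changes of the 16 genes lay between -0.31 and 0.16. *Cav1*, the coat protein of caveolae, had the highest level, with a mean FPKM of 456 ± 74.0 in WT and 476 ± 51.6 in Npr1+/- aortas (SD, n = 3). *Calm2*, a gene of the calmodulin that gates SK and IK channels, had 263 ± 31.7 and 254 ± 57.3, with a log2 fold change of -0.04 (standard error 0.22). *Itgb1*, an integrin subunit that couples matrix force to TRPV4, had 377 ± 90.1 and 304 ± 117. *Nme2*, the kinase that activates IK by phosphorylating a histidine, had 199 ± 46.8 and 208 ± 2.58.

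Receptors, G proteins, phospholipases and release channels that raise endothelial calcium from stores, and the pumps that clear it, were tested as a list of 20 genes. By edgeR's quasi-likelihood test 0 were called. It gave 1 an unadjusted p under 0.05, or 4 with the replicate block, against 2.96% and 12.4% of all genes tested. The median log2 fold change was 0.02, against 0.01 over all genes tested. The highest levels were those of *Atp2a2*, the calcium pump of the endoplasmic reticulum (172 ± 51.3 FPKM in WT and 135 ± 39.4 in Npr1+/- aortas), *Plcb4*, a phospholipase C (63.8 ± 15.2 and 50.2 ± 17.8), *Gna11*, a G protein subunit that activates it (54.6 ± 1.52 and 52.7 ± 6.51), and *Atp2b4*, a calcium pump of the cell membrane (40.3 ± 13.8 and 31.7 ± 5.96; SD, n = 3 for each). The gene under an unadjusted p of 0.05 without the block was *Chrm3*, singled out after its values were seen, which encodes the muscarinic receptor through which acetylcholine relaxes arteries. Its FPKM was 0.07, 0.17 and 0.14 in WT against 0.27, 0.46 and 0.37 in Npr1+/- libraries, without overlap but at low level (edgeR's quasi-likelihood test, log2 fold change 1.44 with a standard error of 0.44, unadjusted p = 0.0141, adjusted p = 0.999).

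Downstream of the channels, 18 genes of the hyperpolarization and relaxation of the vessel were listed, of which 17 were tested. By edgeR's quasi-likelihood test 0 were called. It gave 1 an unadjusted p under 0.05, or 6 with the replicate block, against 2.96% and 12.4% of all genes tested. The 6 genes, named after their values were seen, went in both directions. In the main fit *Nos3*, *Gja4* and *Ephx2* had positive log2 fold changes, and *Abcc9* (-0.69), *Cacna1c* (-0.41) and *Kcnj8* (-0.42) negative ones. The median log2 fold change of the list was 0.12, against 0.01 over all genes tested. High levels were those of *Ptgis*, the prostacyclin synthase (410 ± 62.8 FPKM in WT and 359 ± 154 in Npr1+/- aortas), and *Atp1b3*, a beta subunit of the sodium pump (110 ± 7.56 and 106 ± 7.70; SD, n = 3 for each), with log2 fold changes of -0.19 and -0.04. The gene with an unadjusted p under 0.05 without the block was *Nos3*, endothelial nitric oxide synthase, singled out after its values were seen. Its FPKM was 14.10, 10.47 and 14.45 in WT against 32.56, 30.92 and 25.53 in Npr1+/- libraries, so that the genotypes did not overlap (edgeR's quasi-likelihood test, log2 fold change 1.19 with a standard error of 0.19, unadjusted p = 0.000547, adjusted p = 0.999). It was the 1 gene of the 5 lists that DESeq2 called.

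Finally, genes with the most similar pattern were sought for 4 of the channels, by the root mean square difference of log2 CPM over the 6 libraries after each gene was centred on its own mean, among 9961 genes with a mean of at least 10 CPM. For *Trpv4* these were *Ramp2*, the partner of the adrenomedullin receptor (difference 0.16), and *Rasa4* (0.17). The FPKM of *Ramp2* was 52.26, 43.96 and 54.64 in WT against 91.47, 85.72 and 99.14 in Npr1+/- libraries. For *Kcnn4* they were *Dhh*, the hedgehog ligand desert hedgehog, and *Mall* (0.29 each), the former with 1.34, 1.40 and 2.0 FPKM in WT and 3.74, 4.37 and 3.63 in Npr1+/- libraries. For *Piezo1* they were *Prkd1* (0.052) and *Cebpg* (0.056), and for *Kcnn3* *Net1* (0.10) and *Enoph1* (0.11). The median difference over the 9961 genes was 0.49 for *Trpv4*, 0.82 for *Kcnn4*, 0.41 for *Piezo1* and 0.37 for *Kcnn3*. With 6 libraries that share genotype and the shift of the libraries numbered 1, this likeness is a description of the values.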

How the data were processed

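RNA-seq of whole aortas of male mice was analysed in 3 WT and 3 Npr1+/- libraries. Reads were cleaned by the authors with SOAPnuke, mapped with Bowtie2 to reference coding genes and quantified with RSEM. The authors deposited estimated counts without normalization, and FPKM, scaled by transcript length and library size. The build named in the submitters' processing notes is mm10. The columns headed by the authors as expression values were taken as FPKM from their proportion to counts, and the authors' means were not used. NCBI identifiers were paired with symbols of RefSeq (GRCm38.p6) for 18070 of 18191 genes, and positions of genes are those of GENCODE M21. Groups and replicate numbers came from the sample labels, and columns headed knockdown were matched to Npr1+/- libraries by number.

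Estimated counts were rounded. The genotypes were compared with R 4.3.3 and edgeR 4.0.16 (TMM, filter with a minimum count of 10, quasi-likelihood test, Benjamini-Hochberg adjustment over 13938 genes), with a call at an adjusted p below 0.05 and a log2 fold change of 0.5 or more in size. Log2 CPM used a prior count of 2. Standard errors were derived from the F statistic. Deviations from the genotype means correlated at 0.645, 0.386 and 0.235 between libraries with the same number. These lay above the level of 0.1 set for pairing. The number was therefore used to set libraries side by side in pairs and as a block in an alternative fit. The main fit used the genotype alone. The replicate number comes from the labels alone, and 2 pairs with different numbers reached 0.371 and 0.445. Both lay above the level of 0.1 and above the 0.235 of the libraries numbered 3. The correlations therefore do not show that the libraries numbered 2 and 3 are pairs by number.

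The members and lists were chosen with earlier results of these data known. Named were the 8 channels, *Npr1*, the 4 genes of each list with the highest mean FPKM, called genes, and the 2 nearest genes in pattern for 4 channels. Other genes are named for values that were in view. A planned test of neighbouring levels is given without p-values, since the order came from the same levels. Some genes that the rule names are not reported here. Alternatives were DESeq2 1.42.0, its size factors, no filter, limma 3.58.1 on log2(FPKM + 0.1) or log2(FPKM + 1) where the mean FPKM reached 0.1, the replicate block, and leaving out each library.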

Additional observations from a re-analysis of the deposited data

How the results depend on the processing

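DESeq2 in place of edgeR called 15 genes in place of 0, and 1 gene of the 5 lists (*Nos3*) in place of 0. All other alternatives called 0 genes. These were the replicate block (0 called), DESeq2's size factors, no filter on low counts, both forms of limma and each library left out. In edgeR without each library, the number of genes with an unadjusted p under 0.05 ran from 194 without WT 2 to 865 without WT 1. With the replicate block it was 1735. Of 108 log2 fold changes of the 8 channels and *Npr1* under these alternatives, 107 moved by less than 1 SD between libraries. The other was *Trpv4*, 0.67 with limma on log2(FPKM + 1), a scale that compresses low levels. For the fits without 1 library, a move of 1 SD could hardly occur, since the SD comes from the same libraries. For those fits the count therefore does not measure stability. *Trpv2* turned negative without WT 1, Npr1+/- 2 or Npr1+/- 3 (-0.10, -0.02 and -0.03), and *Piezo1* was 0.02 without Npr1+/- 1.

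Of 7 neighbouring pairs, 2 kept the direction of the order over all libraries in every library. This number was 4 in WT libraries alone, 5 in Npr1+/- libraries alone and 2 to 3 with each library left out, where fewer libraries must concur. Pairs reversed in every library of a genotype are not counted. These were *Trpv4* and *Trpc1* in WT, and *Trpc1* and *Kcnn4* in Npr1+/- libraries. The difference relative to endothelial markers, with alternatives added after seeing the data, was 0.12 to 0.58 for *Trpv4* without each library (0.12 without Npr1+/- 3) and 0.59 to 1.35 for *Kcnn4*, and its mean within pairs of the same number was 0.34 and 0.96. With 3 libraries a genotype, and 13.38 to 37 counts for *Trpc6* and *Kcnn3*, small differences of these genes could not be resolved.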
